A study of Mus musculus with 24 samples.

Results

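Mitosis genes were examined in left ventricles of mice with ANG II-induced hypertensive left ventricular hypertrophy (LVH). The genes form a list of 49 symbols for the cyclin and kinase core of mitosis, the kinetochore, the spindle and cytokinesis, chosen by gene symbol and not by level. All 49 were found among the 14912 genes of the table, and each passed the filter on low values used for testing (a mean of at least 0.1 FPKM over the samples). Left ventricles came from male wild-type C57BL/6J mice. Subcutaneous osmotic mini-pumps delivered ANG II at a dose of 1500 ng/kg/min over 7 days in the hypertensive-LVH group (12 mice), and saline over the same time in the control group (12 mice). Hearts were flushed with saline before the ventricle was taken, and mRNA was selected with oligo(dT) for sequencing. The ages of the mice are not given in the sources used here.

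Mitosis is run by cyclin-dependent kinase 1 with its cyclins, by Polo-like kinase and by the Aurora kinases. Kinetochores tie chromosomes to the microtubules of the spindle, the spindle checkpoint holds the cell until every chromosome is attached, and the anaphase-promoting complex then marks cyclin B and securin for destruction so that the chromosomes part and the cell divides. Most cardiomyocytes of the adult mouse no longer divide, whereas fibroblasts, endothelial cells and immune cells of the heart can. Transcripts of these genes are mostly made late in the cell cycle, under complexes that bind CCAAT boxes and the cell cycle genes homology region (CHR).

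The values are FPKM, fragments of a gene scaled by transcript length and by the mapped fragments of the library, as further adjusted by the authors. Exact ties between samples, counted without 278 genes that held whole hundredths in every sample, showed 4 sets of ventricles. For 11033 of the 14026 genes tested, the spacing of the values matched a separate shift and scaling of the gene in each set. Each set holds 3 samples of either group: set 1 starts at sample 1, set 2 at sample 4, set 3 at sample 7 and set 4 at sample 10. Because of the shift and scaling some values lie below 0. For the mitosis genes 28 of 1176 values did, in 16 genes, always in control samples 7, 8 and 9, those of set 3. The number of reads behind each value is not given, so no counting error can be attached to these low levels. Cardiomyocyte markers (Myh6, Tnnt2 and others, 10 genes) summed to between 38199 and 64232 FPKM over the 24 ventricles. The mitosis genes lay far lower, with a median over the 49 genes of 0.797 FPKM in the control group and 2.32 FPKM in the hypertensive-LVH group, against 6.96 FPKM for all genes tested. In whole tissue, a change in the number of dividing cells and a change in the RNA of each such cell cannot be told apart.

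ANG II ventricles had higher levels of 46 of the 49 mitosis genes at an adjusted P-value under 0.05 (limma on log2(FPKM + 1)) and lower levels of 0, whereas 20.9% of all 14026 genes tested were higher and 12.6% lower. The DEG criteria, which add an absolute log2 fold change above 0.5, were met by 34 of them, all higher, against 5.92% of all genes tested (4.52% higher and 1.4% lower). The log2 fold change had a median of 0.68 over the mitosis genes and of 0.05 over all genes tested. The 3 genes that missed the threshold were Spc24, Bub1 and Cenpe. On this scale the 1 added to each value makes the fold change of low genes smaller than the ratio of their FPKM. Of the 49 genes, 8 (Birc5, Nuf2, Cdca3, Bub1b, Cep55, Ccna2, Ccnb1 and Kif22) had been picked by the study from its RNA-seq data. By the paper's account those data held more samples per group than were analysed here, and the 8 genes are not independent evidence of direction. Without them, 38 of 41 were higher and 26 met the DEG criteria, and the median log2 fold change was 0.56. Apart from its own RNA-seq, the paper reports higher Birc5, Nuf2 and Cdca3 by RT-qPCR, and higher NUF2 and CDCA3 protein by western blot. In public data on aortic constriction it reports higher Nuf2 and Cdca3, and only a rising trend for Birc5. In public data on volume overload it reports inconsistent results for Birc5, Nuf2 and Cdca3. Those measurements were not examined here.

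**Figure D1:**
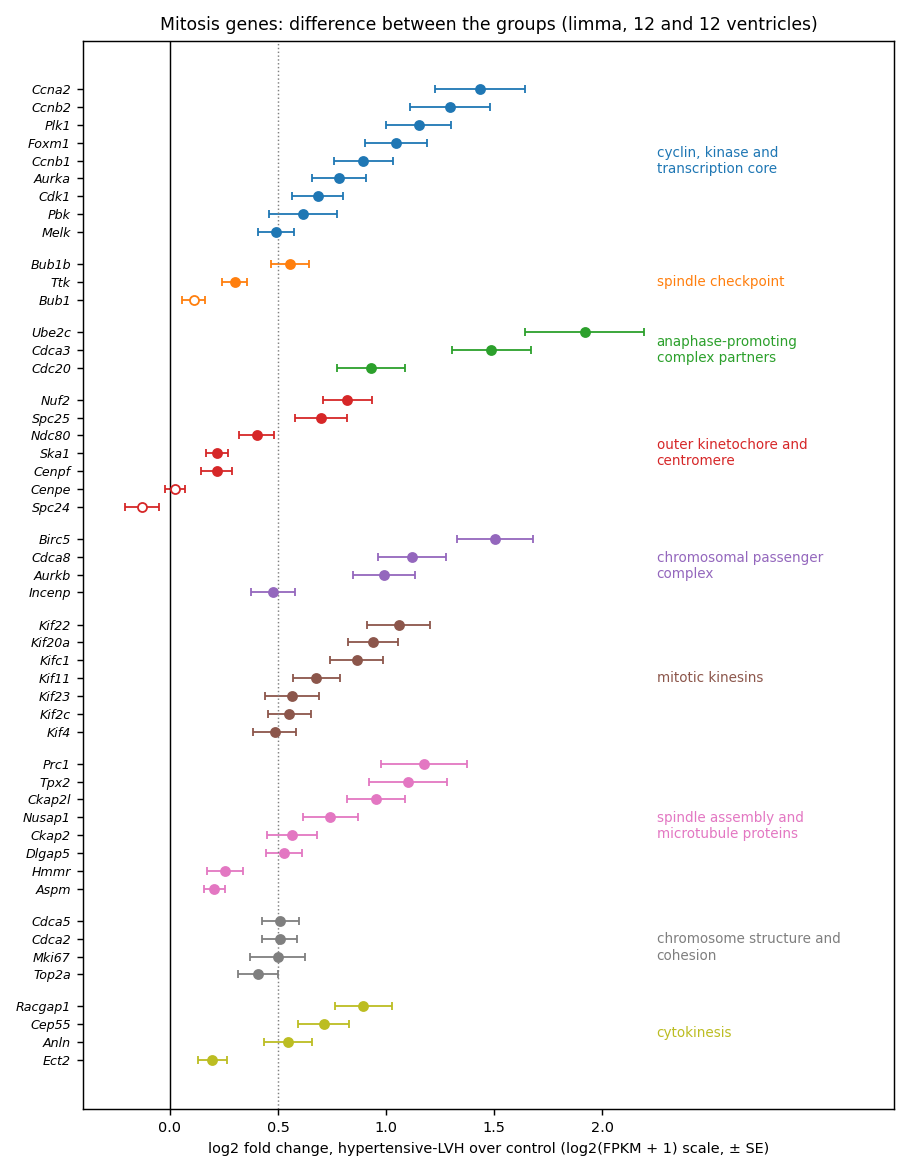
Log2 fold change of each of the 49 mitosis genes (horizontal axis, log2(FPKM + 1) scale, hypertensive-LVH over control, bars ± SE of limma, 12 ventricles per group), ordered by role. Filled circles passed the adjusted P-value of 0.05, open circles (Bub1, Cenpe, Spc24) did not, and the dotted line marks the DEG threshold of 0.5. Values run from -0.13 for Spc24 to 1.92 for Ube2c.

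Promoter sequences were examined because CCAAT boxes and the CHR are known elements of mitosis gene promoters. Sequences from 250 bases before to 50 bases after the start (RefSeq, GRCm38.p6) were matched for 38 of the 49 genes. Both strands were searched for CCAAT, the box bound by NF-Y, and for TTTGAA or TTCGAA, the core letters of the CHR. A CCAAT was found for 29 of 38 mitosis genes (76.3%) and for 42.3% of all genes tested, and at least 2 for 55.3% and 15.7%. TTTGAA or TTCGAA was found for 84.2% of the mitosis genes and 16.4% of all genes tested. Both kinds were held by 27 of the 38 (71.1%) and by 6.75% of all genes tested. Genes with both kinds had a median log2 fold change of 0.68 (27 genes) and the others of 0.55 (11 genes), and the ranges overlapped from 0.11 to 1.5. Matches to CCAAT had a median position of -65 from the start, and those to TTTGAA or TTCGAA of -7. A match describes letters and does not show that a factor was bound.

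**Figure D2:**
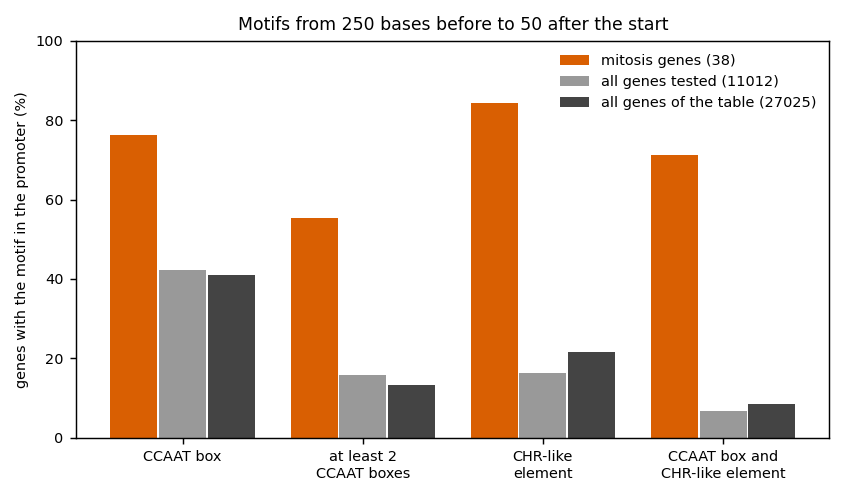
Share of genes (vertical axis, percent) with each motif in the promoter, from 250 bases before to 50 after the start, for 38 mitosis genes, 11012 genes tested and 27025 genes of the RefSeq table. The CHR-like element is TTTGAA or TTCGAA on either strand. The mitosis genes had the highest share for every motif, 84.2% against 16.4% of genes tested for the CHR-like element.

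Promoters with both kinds of motif are shown for genes with large increases, followed by that of Birc5, which rose and held neither, and those of Bub1 and Cenpe, which missed the threshold. Capitals mark the CCAAT box, read as ATTGG on the other strand. They also mark either form of the CHR letters, TTTGAA in some promoters and its reverse complement in others. In the promoter of Ube2c a CCAAT and an ATTGG overlap and were counted separately. The RefSeq start of Cdca3 lies inside the gene as GENCODE draws it.
Ube2c (chr2:164769679-164769978, plus strand): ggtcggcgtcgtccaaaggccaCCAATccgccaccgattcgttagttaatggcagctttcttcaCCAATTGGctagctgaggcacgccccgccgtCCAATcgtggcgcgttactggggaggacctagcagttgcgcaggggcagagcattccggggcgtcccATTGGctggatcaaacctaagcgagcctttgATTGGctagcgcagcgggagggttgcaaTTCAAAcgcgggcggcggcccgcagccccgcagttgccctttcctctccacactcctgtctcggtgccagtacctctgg
Cdca3 (chr6:124829926-124830225, plus strand): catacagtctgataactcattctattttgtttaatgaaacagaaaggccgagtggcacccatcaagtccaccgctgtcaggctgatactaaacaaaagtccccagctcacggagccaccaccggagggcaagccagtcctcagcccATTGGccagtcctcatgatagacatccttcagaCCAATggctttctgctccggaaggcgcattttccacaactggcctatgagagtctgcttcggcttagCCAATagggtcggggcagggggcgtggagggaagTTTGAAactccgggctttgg
Ccnb2 (chr9:70421505-70421804, minus strand): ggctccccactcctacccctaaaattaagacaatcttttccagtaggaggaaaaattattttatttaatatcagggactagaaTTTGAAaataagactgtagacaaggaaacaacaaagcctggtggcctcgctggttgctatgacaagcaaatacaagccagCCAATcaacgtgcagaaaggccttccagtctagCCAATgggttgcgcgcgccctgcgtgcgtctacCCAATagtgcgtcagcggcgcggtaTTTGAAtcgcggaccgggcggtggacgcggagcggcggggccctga
Birc5 (chr11:117848987-117849286, plus strand): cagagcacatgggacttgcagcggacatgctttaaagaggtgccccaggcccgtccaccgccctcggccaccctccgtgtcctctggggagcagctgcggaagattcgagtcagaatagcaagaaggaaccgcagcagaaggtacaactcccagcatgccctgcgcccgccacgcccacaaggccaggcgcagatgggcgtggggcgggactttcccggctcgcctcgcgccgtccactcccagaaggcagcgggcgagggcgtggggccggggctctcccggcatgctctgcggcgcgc
Bub1 (chr2:127831810-127832109, minus strand): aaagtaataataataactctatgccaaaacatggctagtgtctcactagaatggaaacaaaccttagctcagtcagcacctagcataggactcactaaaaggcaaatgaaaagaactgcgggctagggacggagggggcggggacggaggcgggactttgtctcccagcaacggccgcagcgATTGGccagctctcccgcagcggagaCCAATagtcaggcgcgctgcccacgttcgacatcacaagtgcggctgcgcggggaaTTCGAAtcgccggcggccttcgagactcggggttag
Cenpe (chr3:135212313-135212612, plus strand): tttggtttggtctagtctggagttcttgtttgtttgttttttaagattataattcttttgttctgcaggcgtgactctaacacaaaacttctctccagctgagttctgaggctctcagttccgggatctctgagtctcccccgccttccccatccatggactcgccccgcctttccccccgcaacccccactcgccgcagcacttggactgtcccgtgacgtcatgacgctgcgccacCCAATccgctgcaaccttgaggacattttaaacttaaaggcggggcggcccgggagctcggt
Bub1 thus had 2 CCAAT and 1 TTCGAA with a log2 fold change of 0.11, while Birc5 had none of these letters with a log2 fold change of 1.5.

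Among the partners of the anaphase-promoting complex, all 3 genes rose and had the highest median log2 fold change of the 9 role groups, 1.49. Ube2c (chr2:164769898-164778822), the ubiquitin-conjugating enzyme that starts the ubiquitin chains made by the complex, ranged from -0.65 to 5.05 FPKM in the control group (median 1.547) and from 5.03 to 16.1 FPKM in the hypertensive-LVH group (median 9.13). The ranges overlapped by a single ANG II sample, and 11 of 12 lay above every control sample. The mean was 9.50 ± 3.46 FPKM against 2.04 ± 1.97 FPKM (SD, n = 12 each), and the log2 fold change was 1.92 (SE 0.276, adjusted P-value 1.76e-05). Cdca3, an adaptor that helps to bring the kinase Wee1 to destruction, ranged from -0.421 to 1.65 FPKM in control (median 0.548) and from 1.77 to 5.72 FPKM in hypertensive-LVH ventricles (median 3.01). These ranges did not overlap, and the log2 fold change was 1.49 (SE 0.183, adjusted P-value 3.88e-06). Cdc20, the activator of the complex at the start of anaphase, had a log2 fold change of 0.93. Exons of Ube2c share 22.8% of their bases with Tnnc2 on the other strand. Whether reads were counted by strand is not given, and Tnnc2 was listed at 0.155 FPKM in the hypertensive-LVH group and 0.199 FPKM in control. Of the 16 subunits of the complex itself, 2 were higher (Anapc15, log2 fold change 0.31, and Anapc4, 0.14) and 2 lower (Anapc13, -0.24, and Cdc26, -0.21), near or under the 20.9% and 12.6% of all genes tested, and the median was -0.00.

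All 9 genes of the cyclin, kinase and transcription core rose, and 8 met the DEG criteria, with log2 fold changes from 0.49 to 1.43. Ccna2, cyclin A2, had between -0.247 and 2.16 FPKM in control samples (median 1.23) and between 2.22 and 7.69 FPKM in ANG II samples (median 4.06). No ANG II sample fell within the control range, and the log2 fold change was 1.43 (SE 0.21, adjusted P-value 2.11e-05). For Ccnb1, cyclin B1, the control range was 0.0131 to 1.08 FPKM (median 0.705) and the hypertensive-LVH range 0.959 to 3.30 FPKM (median 1.80). One ANG II sample lay within the control range, and the log2 fold change was 0.89 (SE 0.137, adjusted P-value 3.64e-05). The other cyclin B, Ccnb2, rose by 1.30 and its partner Cdk1 by 0.68 on the log2 scale. The mitotic kinase Plk1 rose by 1.15, the spindle pole kinase Aurka by 0.78, and Foxm1, a transcription factor for late cell cycle genes, by 1.05. The protein kinases Pbk and Melk rose by 0.62 and 0.49. Exons of Ccna2 share 12.5% of their bases with Exosc9 on the other strand, which had a log2 fold change of 0.20. Mean levels with ANG II and in control were 8.74 and 7.46 FPKM for Exosc9, against 4.75 and 1.15 FPKM for Ccna2. Processed pseudogenes of Ccnb1 and Ccnb2 are annotated.

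The chromosomal passenger complex brings Aurora B to centromeres and then to the midzone of the spindle, and its 4 genes all rose. Birc5 (chr11:117849251-117855743), survivin, had the largest change among them. Its control samples lay between -0.67 and 1.52 FPKM (median 0.696) and its ANG II samples between 1.78 and 6.34 FPKM (median 3.67). The groups did not overlap, and the log2 fold change was 1.5 (SE 0.175, adjusted P-value 2.11e-06). Borealin (Cdca8) rose by 1.12 and the kinase Aurkb by 0.99. Incenp, the scaffold of the complex and its most abundant transcript, changed least, from a control range of 1.55 to 4.02 FPKM (median 2.82) to 2.97 to 6.92 FPKM (median 4.22). These ranges overlapped, with 8 of 12 ANG II samples above the highest control, and the log2 fold change was 0.48 (SE 0.101, adjusted P-value 0.000942).

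Kinetochore genes were divided, with 5 of 7 higher, 2 of them DEGs, around a median of 0.22 for the log2 fold change. The Ndc80 complex, which binds microtubules at the outer kinetochore, has 4 subunits, all measured here. Nuf2 ranged from -0.188 to 0.658 FPKM in control ventricles (median 0.458) and from 0.791 to 2.46 FPKM in hypertensive-LVH ventricles (median 1.30). Its groups did not overlap, with a log2 fold change of 0.82 (SE 0.114, adjusted P-value 1.24e-05). Spc25 rose by 0.70, also without overlap, and Ndc80 by 0.40. Spc24, the fourth subunit, ranged from 2.68 to 5.27 FPKM in control (median 3.98) and from 2.76 to 5.01 FPKM with ANG II (median 3.45). Its groups overlapped almost fully, and its log2 fold change of -0.13 (SE 0.0795) missed the threshold (adjusted P-value 0.207). With a pseudocount of 0.1 in place of 1 the log2 fold changes were 1.84 for Nuf2, 1.18 for Spc25, 1.14 for Ndc80 and -0.16 for Spc24. In control ventricles the mean of Spc24 was 4.01 FPKM, against 0.894 FPKM for Spc25, 0.393 FPKM for Nuf2 and 0.287 FPKM for Ndc80, a comparison of levels per length. Spc24 was also lower with ANG II at an adjusted P-value of 0.0334 after quantile normalization and 0.0472 without set 2.

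Cenpe, a kinesin that moves chromosomes to the spindle equator, had 0.707 to 0.95 FPKM in control (median 0.899) and 0.668 to 1.27 FPKM with ANG II (median 0.85). The groups overlapped, the log2 fold change was 0.02 (SE 0.0468, adjusted P-value 0.707), and its sign turned under several settings. Cenpf rose by 0.22 (adjusted P-value 0.0234), a call lost with median-ratio scaling (adjusted P-value 0.066) and with the replicate number as a block (adjusted P-value 0.0646). Ska1, of the complex that follows shrinking microtubules, rose by 0.22, but its control mean of 0.0892 FPKM was under the filter, so it was tested through its level in the ANG II samples. Its mean with ANG II was 0.279 FPKM, and with a pseudocount of 0.1 in place of 1 its log2 fold change was 0.95.

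**Figure D3:**
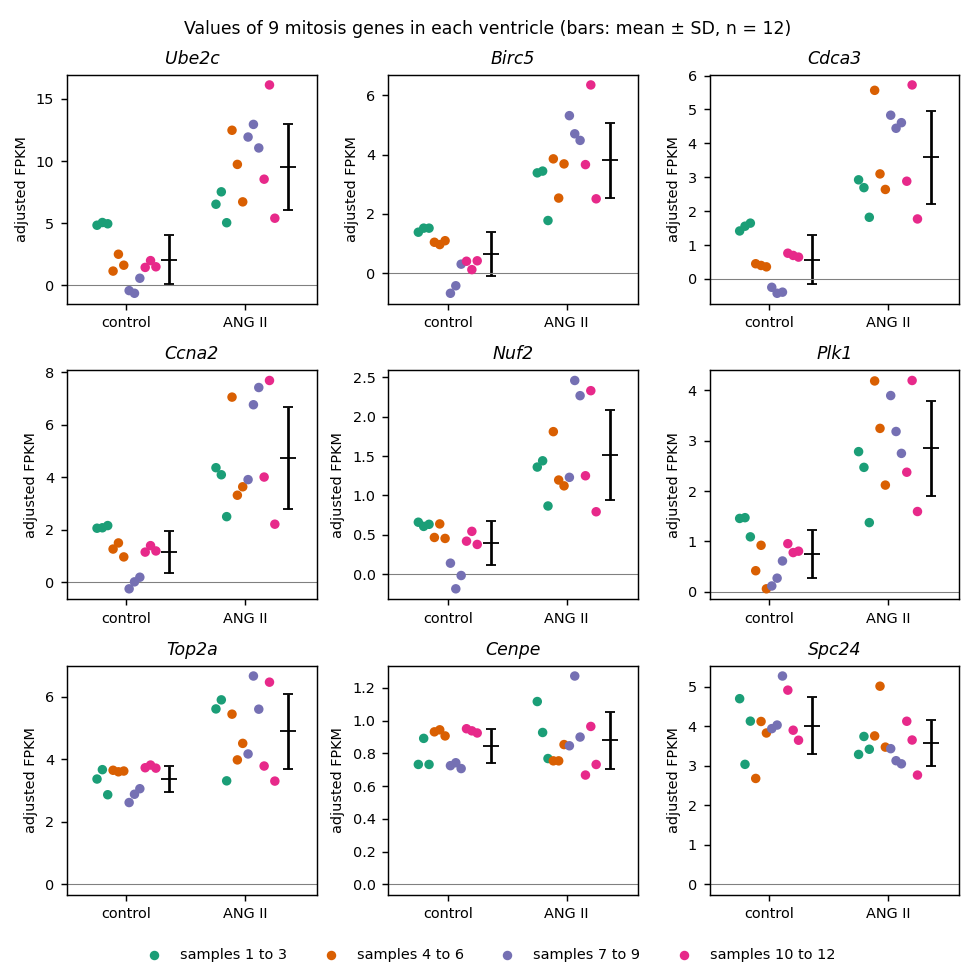
Adjusted FPKM (vertical axis, linear) of 9 mitosis genes in each of the 12 control and 12 ANG II ventricles, coloured by set of samples, with mean ± SD beside each group. Birc5, Cdca3, Ccna2 and Nuf2 show no overlap between the groups, Spc24 and Cenpe overlap, and the control samples 7 to 9 are the lowest in Ube2c. The authors had shifted and scaled each set separately, so levels of different sets are not directly comparable.

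Of the 3 spindle checkpoint kinases, 2 rose. Bub1b (BubR1), which holds back the anaphase-promoting complex, had 0.805 to 1.57 FPKM in control samples (median 1.27) and 1.34 to 3.69 FPKM in ANG II samples (median 2.30). All but 1 ANG II sample lay above the controls, and the log2 fold change was 0.56 (SE 0.0868, adjusted P-value 4.57e-05). Ttk (Mps1), the kinase that starts checkpoint signalling, rose by 0.30. With a pseudocount of 0.1 the order of the 2 turned, with log2 fold changes of 0.94 for Ttk and 0.84 for Bub1b. Bub1, which recruits other checkpoint proteins to kinetochores, had 0.531 to 0.682 FPKM in control (median 0.636) and 0.503 to 1.21 FPKM with ANG II (median 0.703). The groups overlapped, with 6 of 12 ANG II samples above the highest control, and the log2 fold change of 0.11 (SE 0.0532) missed the threshold (adjusted P-value 0.112).

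All 7 mitotic kinesins rose, 6 of them as DEGs, with log2 fold changes from 0.48 to 1.06. Kif22, which pushes chromosome arms away from the poles, ranged from 0.0923 to 1.54 FPKM in control ventricles (median 0.89) and from 1.48 to 5.11 FPKM in hypertensive-LVH ventricles (median 2.63). A single ANG II sample lay within the control range, and the log2 fold change was 1.06 (SE 0.146, adjusted P-value 1.18e-05). Kif20a, a kinesin of cytokinesis, rose by 0.94 without overlap, the minus-end motor Kifc1 by 0.86, and Kif11, which pushes the spindle poles apart, by 0.68. Kif23, a subunit of the centralspindlin complex with the highest control level of the kinesins, went from 0.427 to 1.89 FPKM in control (median 1.5) to 1.66 to 4.14 FPKM with ANG II (median 2.38). Of its ANG II samples 8 lay above every control, and the log2 fold change was 0.56 (SE 0.123, adjusted P-value 0.00126). Exons of Kif20a share 29.3% of their bases with Cdc23 on the other strand, and those of Kif4 share 15.1% with Pdzd11. Cdc23 had a log2 fold change of -0.10 and Pdzd11 of -0.01. Mean levels with ANG II and in control were 11.3 and 12.2 FPKM for Cdc23, against 2.55 and 0.835 FPKM for Kif20a. They were 17.4 and 17.5 FPKM for Pdzd11, against 1.01 and 0.419 FPKM for Kif4. The part of reads from these neighbours in the values of Kif20a and Kif4 is not known. Processed pseudogenes of Kif22 and Kif4 are annotated as well.

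Genes for spindle assembly and microtubule binding rose in 8 of 8 cases, from 0.20 for Aspm to 1.17 for Prc1, although Aspm (adjusted P-value 0.107) and Hmmr (0.204) were not called after quantile normalization. Prc1, which bundles the microtubules of the spindle midzone, had between -0.478 and 2.60 FPKM in control (median 1.28) and between 1.91 and 6.76 FPKM with ANG II (median 3.73). Its groups overlapped by 2 ANG II samples, and the log2 fold change was 1.17 (SE 0.198, adjusted P-value 0.0001). Exons of Prc1 share 11.1% of their bases with Rccd1 on the other strand. Mean levels with ANG II and in control were 1.88 and 1.83 FPKM for Rccd1, against 4.01 and 1.22 FPKM for Prc1. Tpx2, which activates Aurora A, rose by 1.10, Ckap2l by 0.95 and Nusap1 by 0.74. Hmmr rose by 0.26 (adjusted P-value 0.0192), a call that was also lost without set 1 (adjusted P-value 0.0654), set 3 (0.0583) or set 4 (0.0552).

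Chromosome structure and cohesion genes rose in 4 of 4 cases, by 0.41 to 0.51. That narrow range depended on the pseudocount. With 0.1 in place of 1 the log2 fold changes were 1.58 for Cdca5, 1.27 for Cdca2, 0.71 for Mki67 and 0.49 for Top2a. Cdca5 (sororin), which guards cohesion between sister chromatids, had -0.138 to 0.445 FPKM in control (median 0.157) and 0.253 to 1.07 FPKM in hypertensive-LVH samples (median 0.737). The groups overlapped by 3 ANG II samples, and the log2 fold change was 0.51 (SE 0.0847, adjusted P-value 8.61e-05). Top2a, the topoisomerase that untangles chromosomes, was among the most abundant of the 49 genes, with 2.61 to 3.81 FPKM in control (median 3.61) and 3.30 to 6.66 FPKM with ANG II (median 4.97). Of its ANG II samples 9 exceeded every control, and the log2 fold change was 0.41 (SE 0.093, adjusted P-value 0.00188). Mki67, the proliferation marker Ki-67, rose by 0.50 (adjusted P-value 0.00424), a call lost without set 3, where the adjusted P-value was 0.0637.

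The 4 cytokinesis genes rose. Racgap1, the other subunit of centralspindlin, had 1.27 to 2.75 FPKM in control (median 1.74) and 2.03 to 7.22 FPKM with ANG II (median 4.00). One ANG II sample overlapped the controls, and the log2 fold change was 0.89 (SE 0.133, adjusted P-value 2.48e-05). Cep55, which gathers the abscission machinery at the midbody, had -0.235 to 0.57 FPKM in control (median 0.476) and 0.566 to 2.33 FPKM with ANG II (median 1.26). Its ranges overlapped at 1 ANG II sample, and the log2 fold change was 0.71 (SE 0.118, adjusted P-value 8.58e-05). Anln (anillin), of the contractile ring, rose by 0.55. Ect2, which activates RhoA at the cleavage site, rose by 0.19 (adjusted P-value 0.0272), a call lost without ANG II sample 8 (adjusted P-value 0.0505), set 1 (0.0763), set 2 (0.11) or set 3 (0.0592), and after quantile normalization (log2 fold change 0.086, adjusted P-value 0.337).

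Groups that did not overlap, with ANG II higher, were seen for 6 of the 49 genes (Birc5, Cdca3, Ccna2, Nuf2, Kif20a and Spc25). The same held for 0.271% of all genes tested, and another 0.485% did not overlap with ANG II lower. Of the 6, the first 4 had been picked by the study, and the other 2 had not. These ranges pool the sets, whose levels are not directly comparable.

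**Figure D4:**
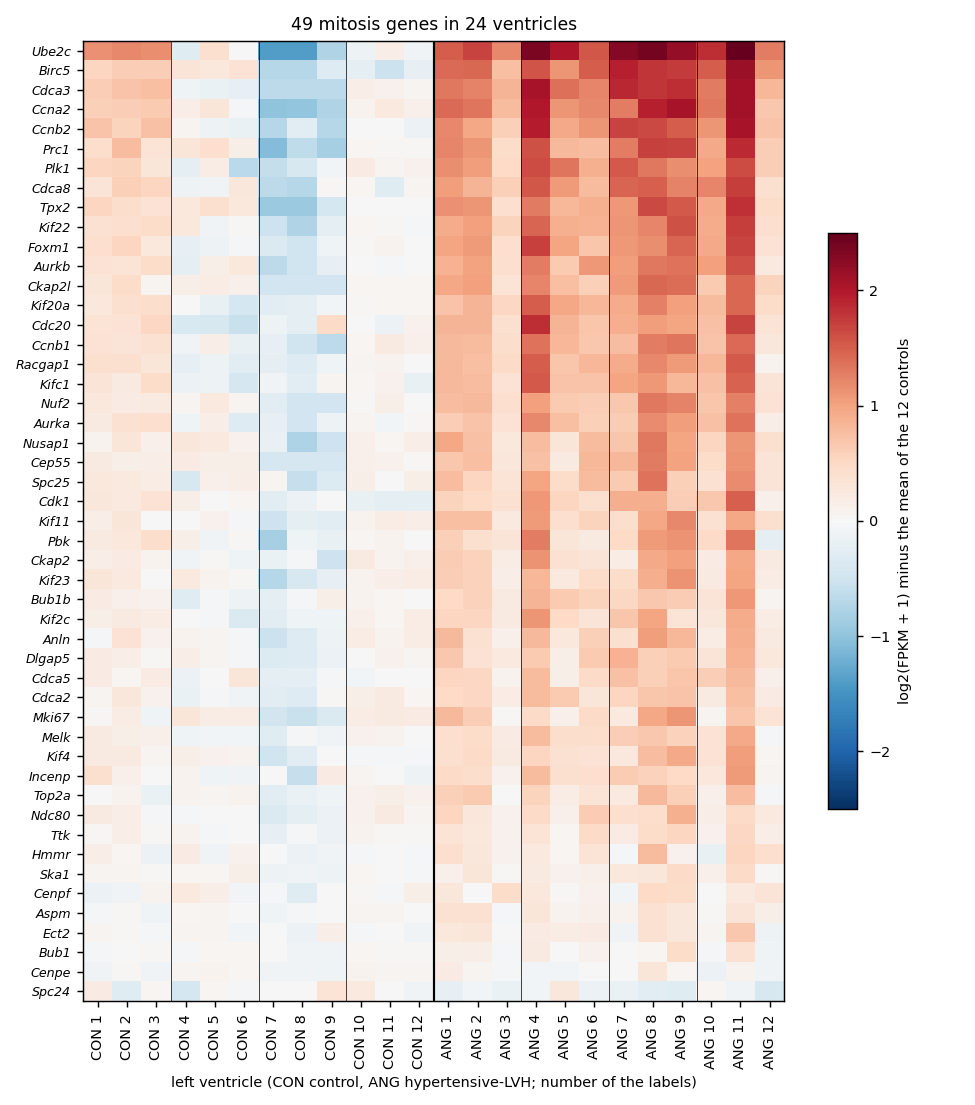
Log2(FPKM + 1) of the 49 mitosis genes (rows, ordered by log2 fold change) in 24 ventricles (columns, CON control and ANG hypertensive-LVH, lines between the 4 sets), minus the mean of the 12 control samples. ANG 11 and ANG 4 are dark for most genes, ANG 3 and ANG 12 pale, and CON 7 and CON 8 lie below the control mean for most genes. Levels of different sets are not directly comparable, since each set had been shifted and scaled separately.

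The ventricles varied together. The summed level of the 49 genes ran from 24.2 to 69.7 FPKM in the control group (mean 49.1) and from 70.1 to 185 FPKM in the hypertensive-LVH group (mean 119). Pooled over the sets, the sums were parted only narrowly, by ANG II sample 12 (set 4) and control sample 2 (set 1). Levels of different sets are not directly comparable. Within each set the sums did not overlap, with the closest in set 1 (lowest ANG II 71.8 FPKM, highest control 69.7 FPKM). Within the hypertensive-LVH group, sample 11 was the highest for 24 genes and sample 12 the lowest for 26. Among controls, samples 7 and 8 were the lowest for 16 and 20 genes, and samples 1, 2 and 3 the highest for 11, 14 and 12. In sets 1 to 4 the mean sums were 97.1, 120, 141 and 117 FPKM with ANG II. Those of control were 67.9, 48.7, 28.9 and 50.7 FPKM. The adjustment shifted each set, so the level of 1 group in different sets cannot be told apart from that step. With group means removed, the correlation over the 24 ventricles had a median of 0.67 over the 1176 pairs of genes and was above 0 for 96.7% of pairs, which share libraries and the adjustment by sets. Foxm1 was most like the others (median correlation 0.79) and Spc24 least (-0.10).

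The difference between the groups was not of the same size in the 4 sets. For the mitosis genes the log2 difference had a median of 0.30, 0.65, 1.16 and 0.54 in sets 1 to 4, and for all genes tested of -0.01, 0.18, -0.02 and 0.03. ANG II samples were higher in every set for 47 of the 49 genes (21.8% of all genes tested). The largest difference fell in set 3 for 42 genes (14.2% of all genes tested) and the smallest in set 1 for 37 (29.5%). Tested with 3 samples per group, 0, 32, 40 and 1 of them passed in sets 1 to 4, all higher, while 0%, 22.1%, 2.17% and 0.0713% of all genes were called higher. At an unadjusted P-value under 0.05 the numbers were 17, 37, 44 and 28. Without set 3, 40 genes were still called higher, and Hmmr, Ect2, Mki67, Cenpf, Pbk and Ska1 were not. A test of the group by set interaction passed for 12 of the 49 genes and for 7.49% of all genes tested. Ube2c showed the widest variation, with log2 differences of 0.29, 1.95, 3.48 and 1.95 in the 4 sets.

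Differences within the sets before the adjustment could be worked back from the spacing of the values for 46 genes (not Ttk, Ska1 and Aspm). These differences do not hold the offsets of the sets. Higher values with ANG II were found for 44 of the 46 at an adjusted P-value under 0.05 (limma on FPKM with the set as a term), against 14.5% of all genes, and 44 were higher in every set, against 22.3%. Bub1 and Cenpe now passed (adjusted P-values 0.0493 and 0.0485), and Cenpf (0.171) and Spc24 (0.345) did not. The differences had medians of 0.395, 1.38, 2.03 and 1.14 FPKM in sets 1 to 4. For Ube2c the differences were 0.503, 7.60, 11.4 and 9.22 FPKM. The adjustment had multiplied the spread of the mitosis genes by a median of 0.872, 1.21, 1.62 and 1.06 in sets 1 to 4, and that of all genes by 0.815, 1.04, 1.39 and 1.08.

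**Figure D5:**
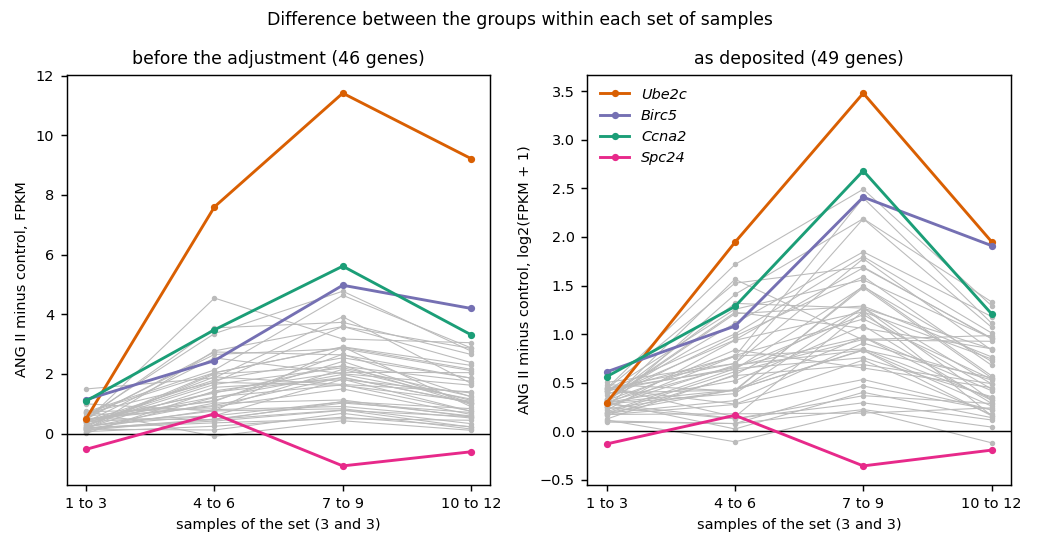
Difference between ANG II and control means within each set of 3 and 3 ventricles, in FPKM before the adjustment for 46 genes (left) and in log2(FPKM + 1) as deposited for 49 genes (right). Each line is 1 gene, and the lines join sets that have no order. Set 3 (samples 7 to 9) gives the largest difference for 39 of 46 genes on the left and 42 of 49 on the right.

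Markers of other cells were counted in the same fit, where 20.9% of all genes tested rose and 12.6% fell. All 10 macrophage markers rose (median log2 fold change 0.63), and their sum ran from 372 to 1083 FPKM with ANG II and from 276 to 623 FPKM in control. By set, its means were 533, 815, 755 and 603 FPKM with ANG II against 522, 288, 342 and 489 FPKM in control, with the smallest difference in set 1 and the largest in set 2. Of 10 fibroblast markers 5 rose and 1 fell, with sums of 1244 to 3500 FPKM against 551 to 1726 FPKM. Fibroblast sums differed most in set 2 (means of 2751 and 695 FPKM) and least in set 4 (1695 and 1656 FPKM). Erythroid markers rose in 5 of 8 cases (4 globin genes and Alas2), with sums of 780 to 6446 FPKM against 56.3 to 2950 FPKM, and differed most in set 4 (means of 3310 and 459 FPKM) and least in set 1 (2295 and 1329 FPKM). Near those shares, endothelial markers rose in 2 and fell in 1 of 10 cases. Cardiomyocyte markers rose in 1 and fell in 5 of 10. Smooth muscle and pericyte markers rose in 3 and fell in 2 of 10, T cell markers rose in 2 of 8, and B cell markers rose in 1 and fell in 1 of 5. None of 3 atrial markers passed the threshold, and their sum ranged from -170 to 2303 FPKM with ANG II and from -157 to 3153 FPKM in control. No marker of these lists was at or below 0 in every sample. The part of these cells in the change of the mitosis genes was not tested. From immunofluorescence, the paper names cardiac myocytes as the main source of CDCA3 and NUF2 protein in the heart.

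Other genes of mitosis outside the list of 49 were counted in the same fit. Of 70 tested, 49 rose, 1 fell and 20 did not pass the threshold, where 20.9% of all genes tested rose and 12.6% fell. The median log2 fold change was 0.28, against 0.05 for all genes tested. Depdc1b had a control mean of 0.0859 FPKM, under the filter, and was tested through its level in the ANG II samples (mean 0.288 FPKM). The largest increases were those of Cks2 (1.28), a subunit of cyclin-dependent kinase complexes, Cdkn3 (0.93), a phosphatase of cyclin-dependent kinases, and Tacc3 (0.89), a spindle protein. Tacc3 had also been picked by the study from its RNA-seq data and is not independent evidence of direction. Pttg1, securin, which blocks separase until anaphase, was the one gene that fell, from 132 ± 14.9 FPKM in control to 93.3 ± 12.0 FPKM with ANG II (SD, n = 12 each), a log2 fold change of -0.50 (adjusted P-value 1.47e-05). Its level was far above that of the 49 genes in both groups.

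Regulators of late cell cycle genes were counted as well. Of 21 genes for E2F, DREAM, MYB and NF-Y proteins, 8 rose and 3 fell, around a median log2 fold change of 0.13, where 20.9% of all genes tested rose and 12.6% fell. The largest increases were those of E2f1 (0.56), an activator of cell cycle genes, E2f8 (0.51), a repressor of E2F targets, and Mybl2 (0.44), the B-Myb protein that joins Foxm1 at late cell cycle genes. Nfyc (-0.16), a subunit of the CCAAT-binding factor NF-Y, Lin52 (-0.16), of the DREAM complex, and the repressor E2f6 (-0.14) fell.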

How the data were processed

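Left ventricles of 12 hypertensive-LVH and 12 control mice were analysed, grouped by their titles. The paper describes more RNA-seq samples per group than these. Libraries were prepared from oligo(dT)-selected mRNA and sequenced in pairs. Per the labels, processing used Bowtie2, HISAT and RSEM; versions, genome build and strand of counting are not given in the sources used here. The authors deposited 1 FPKM value per gene and sample, and values further shifted and scaled in 4 sets, a step their methods do not name. The table was treated as another unit than plain FPKM, since 2741 values (0.766%) were negative. The number of reads per sample is not given, and sums of the values were 460715 to 567727.

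Negative values were set to 0, and the 14026 genes whose mean reached 0.1 were compared with limma 3.58.1 (R 4.3.3, intensity trend, two-sided, Benjamini-Hochberg over all genes tested) on log2(FPKM + 1). P-values measure the spread between these mice. P-values from the adjusted table leave that step out of account. Values before the adjustment were worked back from steps of 0.01 FPKM, under a model chosen here that keeps 1 group difference apart from the scaling, an alternative chosen after seeing the data, and the method was tested on simulated data. Samples were treated as unpaired in the main fit, and whether replicate numbers pair them is not known. Gene positions are from GENCODE vM21 (GRCm38). The genes and lists were chosen with earlier results of these data known. Genes given with lowest, median and highest values are those the study named, the most abundant and most changed of each role group, and those that missed the threshold; from other lists, the 3 most changed and those against the majority were named.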

Additional observations from a re-analysis of the deposited data

Results flagged for a closer look

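In 12 of the 49 mitosis genes the difference between hypertensive-LVH and control ventricles itself varied among the 4 sets of samples (limma, group by set interaction, adjusted over all genes tested; 7.49% of all genes passed). The adjusted P-values were 0.000241 for Ube2c, 0.00242 for Birc5, 0.00265 for Cdca3, 0.00934 for Prc1, 0.0114 for Ccna2 and 0.015 for Tpx2. They were 0.0157 for Ccnb2, 0.0193 for Cep55, 0.0264 for Ckap2l, 0.0445 for Nuf2, 0.0464 for Mki67 and 0.0472 for Nusap1. In each of these genes the largest difference was in set 3 (samples 7 to 9). The test used the deposited values, which had been shifted and scaled by set, with negative values set to 0. All of these genes but Mki67 and Nusap1 had negative values in control samples of set 3. The interaction was not tested on the values before the adjustment, where the differences of Ube2c were 0.503, 7.60, 11.4 and 9.22 FPKM in sets 1 to 4. For Mki67 the log2 differences were 0.45, 0.15, 1.24 and 0.16 in sets 1 to 4, and for Birc5 they were 0.61, 1.08, 2.41 and 1.91. What the sets stand for is not given in the sources used here, and the cause was not tested.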

How the results depend on the processing

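Of the 49 mitosis genes, 40 kept their direction and their side of the threshold in each fit of the deposited values that included them. The cause of the changes below was not tested, apart from settings that tested fewer genes. Leaving out each sample in turn gave 45 to 46 genes higher, 0 to 0 lower, 29 to 38 DEGs and a median log2 fold change of 0.61 to 0.71. It gave 48 to 52 of the other mitosis genes, 3 to 5 subunits of the anaphase-promoting complex and 9 to 11 regulators past the threshold. A pseudocount of 0.1 raised the median log2 fold change to 1.19. With a mean of at least 1, fewer genes were tested and 21 of 36 other mitosis genes passed. Among genes without a negative value, 30 of 33 mitosis genes were higher and 21 were DEGs. Quantile normalization gave 42 higher, 26 DEGs and 1 lower (Spc24). Without set 2, 1 gene was lower (Spc24), 2 subunits and 5 regulators passed. Without set 3, 40 were higher and 24 were DEGs, and 2 subunits and 7 regulators passed. Without set 1, 2 subunits passed, and without set 4, 2 subunits and 5 regulators. Before the adjustment, 32 of 51 other mitosis genes, 1 of 14 subunits and 7 of 20 regulators passed. The log2 fold change of Cenpe turned to -0.084 with quantile normalization, -0.0056 without set 1 and -0.038 without set 3, and leaving out each sample gave -0.00074 (without ANG II sample 8) to 0.040.

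Same-numbered samples correlated at -0.557 to -0.00109 with group means removed. Each set had been shifted separately and set means were not removed, so these values cannot show whether the numbers pair the samples. With the replicate number as a block, 45 mitosis genes were higher, and 1 subunit and 7 regulators passed. Without read numbers, differences of genes under 1 FPKM carry a counting error that is not known.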
